A study of Mus musculus with 5 samples.

Results

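The imprinting control regions of H19, Meg3 and Rasgrf1, whose paternal copy is known to be methylated from the sperm on, were examined in mouse embryonic stem cells. The 3 regions were chosen by name and taken as windows of mm9. The H19/Igf2 window was chr7:149761001-149770000 (18 steps of 500 bp), the Dlk1-Meg3 window chr12:110763001-110782000 (38 steps) and the Rasgrf1 window chr9:89768001-89776000 (16 steps). They hold 72 of the 4767580 steps of the genome with a read in any library. Another 240 steps in the 20 kb on either side of each window served as flanks. Within a window, steps are numbered from 1 at the low-coordinate edge.

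5-hydroxymethylcytosine (5hmC) and 5-methylcytosine (5mC) were mapped by sequencing DNA enriched for either base, with 1 library per group. In hMeDIP (18563204 reads) and MeDIP (10487251 reads), 2 µg of a 5hmC or a 5mC antibody was used to pull down denatured DNA with adaptors. In MethylCap, 1 µg of DNA was bound by 2 µg of a methyl-CpG binding domain (MBD) fused to GST, and the bound DNA was released at 800 mM NaCl (7539403 reads) or 600 mM NaCl (10495409 reads). These 4 libraries came from clones of the E14 line taken from the SIGTR gene-trap library, at passages 11 to 14, and the number of clones in them is not stated in the labels. The input (18722723 reads) was DNA from the chromatin input of another line, TNG-A, which derives from E14 and has a green fluorescent protein reporter at Nanog. All were labelled as grown without feeders, with leukaemia inhibitory factor and 10% serum. DNA libraries offer no expressed markers against which to check the cell type.

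Imprinted genes are transcribed mainly from 1 parental copy, and the methylation of a control region on 1 copy sets which. At H19/Igf2 the unmethylated maternal control region binds the insulator protein CTCF and the maternal copy makes the H19 RNA, whereas the methylated paternal copy makes the growth factor Igf2. At Dlk1-Meg3 an intergenic differentially methylated region (DMR) lies upstream of Meg3, a maternally transcribed long RNA, and the Meg3 promoter becomes methylated on the paternal copy only after fertilisation. At Rasgrf1, which encodes an exchange factor for Ras, the methylated paternal copy is the transcribed one, and a tandem repeat beside the DMR is needed for that methylation. 5hmC is made from 5mC by the Tet enzymes. The reads used here were not assigned to a parental copy, so every value is the sum over both.

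The promoter sequences of Meg3 are shown because the promoter is a DMR of its own with values given below. RefSeq on GRCm38.p6 lists 2 Meg3 starts, 4402 bp apart, and each sequence runs from 250 bases before to 50 bases after a start on the plus strand, with CpG in capitals. Start 1 lies at chr12:109540746-109541045 and start 2 at chr12:109545148-109545447. These coordinates are of another build than the reads, so a start was not placed on a step.
Meg3 start 1: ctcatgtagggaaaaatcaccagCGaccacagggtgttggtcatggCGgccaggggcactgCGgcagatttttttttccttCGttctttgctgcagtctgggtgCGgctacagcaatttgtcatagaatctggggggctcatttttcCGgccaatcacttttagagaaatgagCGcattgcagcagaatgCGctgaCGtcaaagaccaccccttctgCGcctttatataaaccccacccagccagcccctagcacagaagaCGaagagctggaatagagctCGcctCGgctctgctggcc
Meg3 start 2: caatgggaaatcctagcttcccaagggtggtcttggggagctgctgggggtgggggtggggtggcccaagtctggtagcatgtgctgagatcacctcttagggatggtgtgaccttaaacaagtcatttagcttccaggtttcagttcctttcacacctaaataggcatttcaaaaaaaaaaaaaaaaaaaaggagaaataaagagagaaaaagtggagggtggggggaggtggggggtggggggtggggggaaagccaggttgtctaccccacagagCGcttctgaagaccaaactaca
Start 1 has 13 CpG and start 2 has 1, against a median of 7 over 32851 promoters of the same length. As many CpG as at start 1, or more, occurred in 37.9% of them. The letters TGCCGC, part of the known motif of ZFP57, which protects imprinted methylation, were searched on both strands. They occurred 1 time at start 1 and 0 times at start 2, and 11.6% of the promoters hold them. The Rasgrf1 promoter is not shown, since the DMR lies far upstream of the gene.

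Read density was compared as RPM, reads scaled to a total of 1000000 reads on chromosomes 1 to 19 and X. Intervals are exact 95% intervals (Clopper-Pearson on the conditional binomial) of the read ratio. They cover counting error alone: the reads carry no molecular identifiers, so they need not be separate molecules. With 1 library per group there is no replicate check and no p-value. For single steps, a ratio to input of (RPM + 0.5)/(input RPM + 0.5) at 3 or more was counted as enriched, which pulls steps with few reads toward 1. The input held a median of 3 reads per step over the genome.

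Over the 3 windows together, the methyl-CpG capture and the 5mC antibody enriched steps more often than over the genome at large, with the H19 window giving the most, and the 5hmC antibody did not. In hMeDIP 1 of the 72 steps was enriched, against 1.11% of the steps of the genome. MeDIP enriched 9 of 72 steps, against 1.44% of the genome. The 800 mM eluate enriched 13 of 72 steps, against 2.59%, and the 600 mM eluate 16 of 72, against 1.75%. The H19 window held 1 enriched step of 18 in hMeDIP, 6 in MeDIP, 9 at 800 mM and 8 at 600 mM. The Meg3 window held 0 of 38 in hMeDIP, 1 in MeDIP, 3 at 800 mM and 6 at 600 mM, and the Rasgrf1 window 0 of 16 in hMeDIP, 2 in MeDIP, 1 at 800 mM and 2 at 600 mM. Of the 6 MeDIP steps of H19, 2 lay in the control region and the rest in the gene and promoter. The flanks of Meg3 held a larger share than its window in hMeDIP, MeDIP and the 800 mM eluate, but not at 600 mM. In the lower and upper flank, hMeDIP enriched 0 of 40 and 5 of 40 steps and MeDIP 2 of 40 and 5 of 40. The 800 mM eluate enriched 5 of 40 and 4 of 40. At 600 mM the flanks held 2 of 40 and 4 of 40, a smaller share than the 6 of 38 of the window. In the flanks of all 3 windows hMeDIP enriched 6 of 240 steps, MeDIP 9, the 800 mM eluate 12 and the 600 mM eluate 8. Of the 9 steps enriched in MeDIP, 7 were also enriched in the 600 mM eluate. Both eluates shared 10 enriched steps. How often enriched steps coincide between libraries over the genome was not computed, so these overlaps are plain counts. The step enriched in hMeDIP was enriched in all 4 libraries, and it lay in the H19 gene. A further 51 steps were enriched in none of the 4 libraries, which says little at this depth, since moderate enrichment seldom reaches the threshold. With a pseudocount of 0.1 RPM the counts were 7, 19, 30 and 29 of 72, and with 1 RPM they were 0, 3, 3 and 5, in the same order of libraries. The share of genome steps at these 2 pseudocounts was not computed, so these counts cannot be called more or fewer than over the genome.

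**Figure D1:**
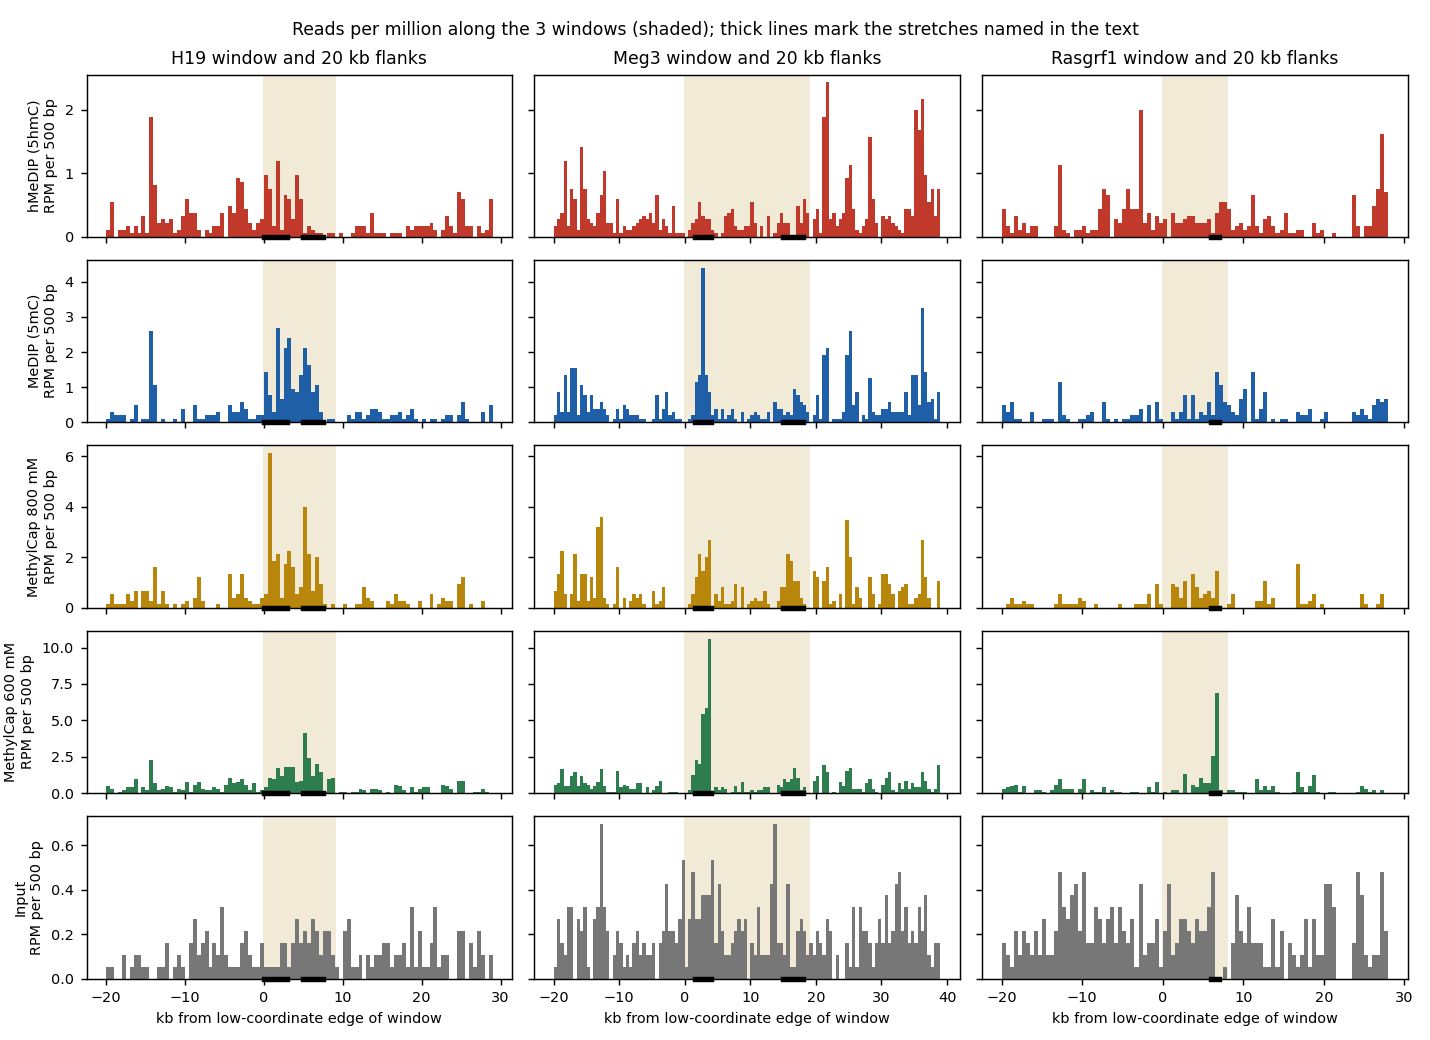
RPM in 500 bp steps (vertical axes, one scale per library) against the distance in kb from the low-coordinate edge of the H19, Meg3 and Rasgrf1 windows, with the windows shaded and 20 kb of flank on either side. From top to bottom the rows are hMeDIP, MeDIP, the 800 mM eluate, the 600 mM eluate and input, and thick lines mark from left to right the H19 gene and control region, the Meg3 intergenic stretch and promoter, and the Rasgrf1 captured stretch. The 600 mM eluate had narrow peaks at the Meg3 and Rasgrf1 stretches, with up to 111 and 72 reads per step, where hMeDIP had 5 and 7 reads.

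Over the whole H19 window, the ratios to input of MeDIP and both eluates were among the highest of tiles of its length. hMeDIP had 126 reads, MeDIP 205, the 800 mM eluate 210, the 600 mM eluate 267 and input 50. The ratio to input was 2.54 (1.82 to 3.60) in hMeDIP, 7.33 (5.36 to 10.2) in MeDIP, 10.4 (7.64 to 14.5) at 800 mM and 9.53 (7.03 to 13.2) at 600 mM. Among 265137 tiles of 9 kb with at least 1.5 input reads per step, 5.93% were as high or higher in hMeDIP, 0.173% in MeDIP, 0.141% at 800 mM and 0.207% at 600 mM. These shares rank the ratio to input, and read density alone was not ranked. The input of the window was on the low side, with 50 reads against a median of 67 over the tiles. As many input reads or more occurred in 82.4% of the tiles. The flanks of H19 were above input as well, so the ratio to input in the window was 1.15 (0.778 to 1.73) times that of its flanks in hMeDIP and 3.63 (2.46 to 5.44) times in MeDIP.

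The H19 window split into a gene part with both antibodies and a control region with the 5mC antibody but no 5hmC antibody signal above input. The control region was taken as steps 11 to 15 (149766001 to 149768500), an approximate position from general knowledge of the locus, as no mm9 annotation was used here. It held 8 reads (0.432 RPM) in hMeDIP, 62 reads (5.94 RPM) in MeDIP, 73 reads (9.72 RPM) at 800 mM, 116 reads (11.1 RPM) at 600 mM and 18 reads (0.964 RPM) in input. Relative to input, the density was 0.448 (0.169 to 1.08) in hMeDIP, whose interval includes 1. It was 6.16 (3.60 to 11.1) in MeDIP, 10.1 (5.96 to 17.96) at 800 mM and 11.5 (6.97 to 20.1) at 600 mM. Against both flanks together, the control region was lower in hMeDIP, with 0.204 (0.0750 to 0.506) times their ratio to input. It was higher in MeDIP, with 3.05 (1.69 to 5.74) times. The flanks were unlike, with an hMeDIP ratio to input of 3.31 (2.51 to 4.41) in the lower and 1.30 (0.967 to 1.75) in the upper flank. The low hMeDIP value was not particular to the control region, as it was 0.202 (0.0215 to 0.946) in steps 16 to 18 just beyond.

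Within the control region the step on the H19 side was the densest. Step 11 (149766001 to 149766500) held 1 read in hMeDIP, 22 in MeDIP, 30 at 800 mM, 43 at 600 mM and 4 in input. Of the steps of the H19 window with at least 3 input reads and 10 library reads, it had the highest ratio to input in both eluates, 6.30 at 800 mM and 6.45 at 600 mM. Its hMeDIP over MeDIP ratio, 0.0256 (0.00062 to 0.159), was the lowest of the window among steps with at least 20 antibody reads. Beyond the control region, steps 16 to 18 held 2 reads each in hMeDIP, MeDIP and the 800 mM eluate but 22 in the 600 mM eluate, against 10 in input. There the 800 mM over 600 mM ratio was 0.127 (0.0144 to 0.515).

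Over the H19 gene, steps 1 to 6, all 4 libraries were above input. hMeDIP had 71 reads, MeDIP 83, the 800 mM eluate 96, the 600 mM eluate 74 and input 10. The ratio to input was 7.16 (3.67 to 15.6) in hMeDIP, 14.8 (7.68 to 32.1) in MeDIP, 23.9 (12.4 to 51.4) at 800 mM and 13.2 (6.79 to 28.7) at 600 mM. Step 4 (149762501 to 149763000), the only enriched step of hMeDIP in the 3 windows, held 22 reads in hMeDIP, 28 in MeDIP, 16 at 800 mM, 18 at 600 mM and 1 in input. Input was thin over the gene, which widens these intervals and leaves the ratios to input imprecise.

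The promoter of H19 and the DNA just upstream of it, steps 7 to 10, also carried both antibodies. The reads were 45 in hMeDIP, 58 in MeDIP, 39 at 800 mM, 55 at 600 mM and 12 in input. Over input this was 3.78 (1.97 to 7.85) in hMeDIP and 8.64 (4.59 to 17.7) in MeDIP. Step 11, the first of the control region, held 1 hMeDIP and 22 MeDIP reads, against 11 hMeDIP and 14 MeDIP reads in step 10 beside it. The 5hmC antibody signal thus ended at the edge of the control region. Of the steps of the window with at least 20 antibody reads, step 9 in this part had the highest hMeDIP over MeDIP ratio, 1.13 (0.481 to 2.85), with 18 reads in hMeDIP and 9 in MeDIP.

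**Figure D2:**
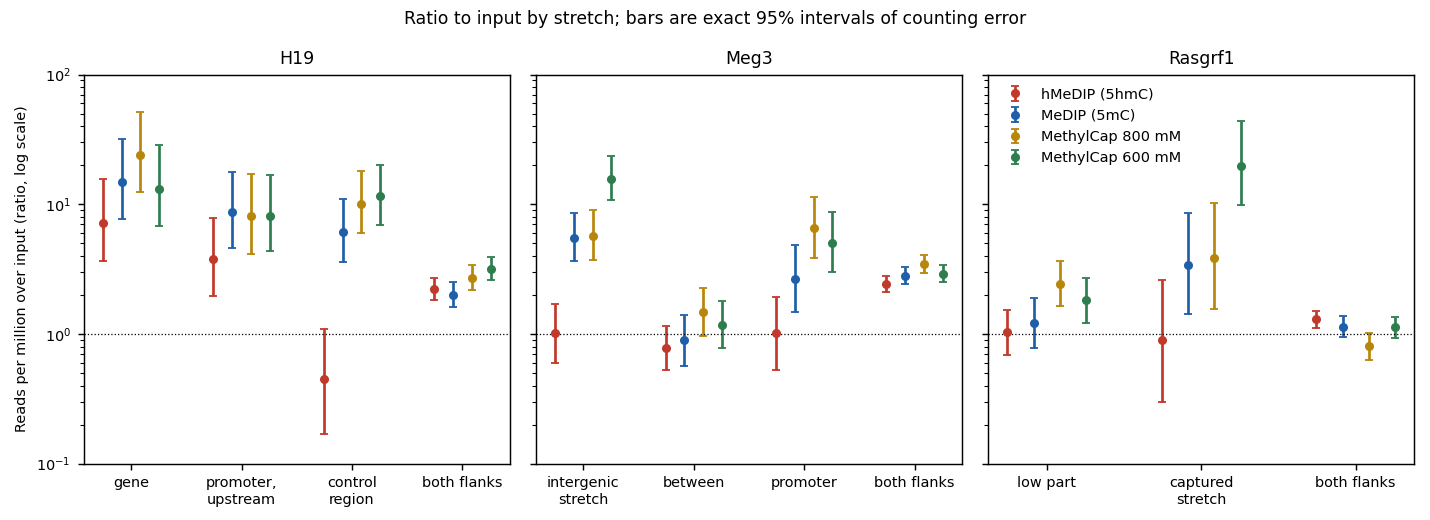
Ratio of RPM to input (vertical log axis) for parts of the H19, Meg3 and Rasgrf1 windows and for both flanks together. Points are the single hMeDIP, MeDIP, 800 mM and 600 mM libraries and bars exact 95% intervals of counting error. hMeDIP was at 0.448 in the H19 control region, 1.01 in the Meg3 intergenic stretch and 0.896 in the Rasgrf1 captured stretch, while the 600 mM eluate was at 11.5, 15.8 and 19.6.

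The Meg3 window as a whole was close to input in hMeDIP and above it in the other libraries. hMeDIP had 149 reads, MeDIP 186, the 800 mM eluate 185, the 600 mM eluate 408 and input 167. The ratio to input was 0.900 (0.717 to 1.13) in hMeDIP, 1.99 (1.61 to 2.47) in MeDIP, 2.76 (2.22 to 3.42) at 800 mM and 4.36 (3.63 to 5.25) at 600 mM. Its flanks were richer than the window in hMeDIP and MeDIP. The window had 0.370 (0.283 to 0.484) times the flanks' ratio to input in hMeDIP, 0.708 (0.544 to 0.922) in MeDIP, 0.796 (0.610 to 1.04) at 800 mM and 1.497 (1.18 to 1.90) at 600 mM, and the interval at 800 mM includes 1. Relative to the flanks the direction of the MeDIP value thus turns.

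The intergenic signal was a block of 5 steps with a sharp upper edge. The 600 mM eluate was enriched in steps 4 to 8 (110764501 to 110767000) with 24, 21, 57, 61 and 111 reads. Step 9 beside them held 1 read at 600 mM and 10 in input. This stretch was set after its values were seen, as the run of enriched steps of the 600 mM eluate. It held 31 reads (1.67 RPM) in hMeDIP, 95 reads (9.10 RPM) in MeDIP, 71 reads (9.46 RPM) at 800 mM, 274 reads (26.2 RPM) at 600 mM and 31 reads (1.66 RPM) in input. As a ratio to input, this came to 1.01 (0.593 to 1.72) in hMeDIP, 5.48 (3.62 to 8.51) in MeDIP, 5.70 (3.69 to 8.99) at 800 mM and 15.8 (10.9 to 23.7) at 600 mM. Since the 600 mM eluate chose the steps, its own ratio there is a description.

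The 5mC antibody and the methyl-CpG capture peaked in different steps of this block. MeDIP was highest in step 6 (110765501 to 110766000), with 6 reads in hMeDIP, 46 in MeDIP, 11 at 800 mM, 57 at 600 mM and 7 in input. The eluates were highest in step 8 (110766501 to 110767000), with 5 reads in hMeDIP, 9 in MeDIP, 20 at 800 mM, 111 at 600 mM and 7 in input. Neither step was high in hMeDIP. An approximate position of the intergenic DMR from general knowledge, steps 7 to 15, overlaps only part of the block, and over it the ratio to input was 0.767 (0.480 to 1.22) in hMeDIP, 1.59 (1.02 to 2.48) in MeDIP, 2.76 (1.81 to 4.20) at 800 mM and 7.26 (5.23 to 10.3) at 600 mM.

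Between the intergenic block and the promoter, steps 16 to 30, no library differed from input beyond counting error. The reads were 48 in hMeDIP, 31 in MeDIP, 37 at 800 mM, 41 at 600 mM and 62 in input. Step 21 (110773001 to 110773500) had the highest hMeDIP ratio to input of the window by the rule for named steps, 1.57, with 10 reads in hMeDIP and 3 in input. The promoter part, steps 31 to 36, was above input again in MeDIP and both eluates. It held 21 reads in hMeDIP, 31 in MeDIP, 55 at 800 mM, 59 at 600 mM and 21 in input. The ratio to input was 1.01 (0.524 to 1.94) in hMeDIP, 2.64 (1.47 to 4.83) in MeDIP, 6.52 (3.88 to 11.3) at 800 mM and 5.02 (3.002 to 8.69) at 600 mM. In step 34 (110779501 to 110780000) hMeDIP had 0 reads, MeDIP 10, the 800 mM eluate 8, the 600 mM eluate 18 and input 1. In step 32 (110778501 to 110779000) the 800 mM eluate had 16 reads and the 600 mM eluate 8, a ratio of 2.79 (1.13 to 7.52), the highest of the window among steps with at least 20 eluate reads.

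Past the promoter the 5hmC antibody signal came back. The upper flank of Meg3, the 20 kb in which the Meg3 transcript runs on, held 441 reads in hMeDIP, 285 in MeDIP, 210 at 800 mM, 258 at 600 mM and 142 in input. The ratio to input there was 3.13 (2.59 to 3.81) in hMeDIP and 3.59 (2.92 to 4.42) in MeDIP. hMeDIP was enriched in 5 of its 40 steps, and MeDIP in 5. The hMeDIP over MeDIP ratio of the promoter part was 0.438 (0.234 to 0.805) times that of the upper flank.

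At Rasgrf1 the 600 mM eluate was enriched in 2 of the 16 steps, side by side. Over the window hMeDIP had 82 reads, MeDIP 70, the 800 mM eluate 66, the 600 mM eluate 155 and input 63. Relative to input, the density was 1.31 (0.934 to 1.85) in hMeDIP, 1.99 (1.39 to 2.84) in MeDIP, 2.61 (1.82 to 3.74) at 800 mM and 4.39 (3.26 to 5.98) at 600 mM. Of 296981 tiles of 8 kb, chosen by the same input minimum, 2.81% were as high or higher at 600 mM and 13.6% in MeDIP. In the low-coordinate part, steps 1 to 12, the ratio to input was 1.03 (0.690 to 1.53) in hMeDIP, 1.21 (0.773 to 1.89) in MeDIP, 2.44 (1.63 to 3.65) at 800 mM and 1.82 (1.22 to 2.71) at 600 mM. Step 8 (89771501 to 89772000) had the most 800 mM reads of this part, 10, against 6 at 600 mM and 3 in input.

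The captured stretch, steps 13 and 14 (89774001 to 89775000), is also where general knowledge places the DMR. It held 8 reads (0.432 RPM) in hMeDIP, 17 reads (1.63 RPM) in MeDIP, 14 reads (1.86 RPM) at 800 mM, 99 reads (9.46 RPM) at 600 mM and 9 reads (0.482 RPM) in input. The ratio to input was 0.896 (0.301 to 2.62) in hMeDIP, 3.38 (1.42 to 8.60) in MeDIP, 3.87 (1.56 to 10.1) at 800 mM and 19.6 (9.94 to 44.2) at 600 mM. Against the flanks the 600 mM ratio to input was 17.3 (8.49 to 39.97) times theirs, and the MeDIP ratio 2.96 (1.22 to 7.72) times. Step 14 alone held 7 reads in hMeDIP, 15 in MeDIP, 11 at 800 mM, 72 at 600 mM and 0 in input. Counting input at a floor of 3 reads, the fold was 42.8 in the 600 mM eluate and 8.94 in MeDIP, which leaves out the counting error of those libraries. The exact intervals of the step, which cover counting error alone, began at 33.96-fold over input in the 600 mM eluate and at 6.41-fold in MeDIP. Since the 600 mM eluate chose the stretch, its own values there are a description. Why the input held 0 reads in this step was not tested.

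Next to the captured stretch lay 1.5 kb that the antibodies covered and the capture did not, in steps 15 to 17 (89775001 to 89776500), the last of them just past the window. These steps were picked out after their values were seen. They held 28 reads in hMeDIP, 22 in MeDIP, 1 at 800 mM, 4 at 600 mM and 1 in input. The MeDIP over 600 mM ratio was 5.51 (1.87 to 22.0), where in the captured stretch it was 0.172 (0.0964 to 0.290). The antibodies did not differ from each other beyond counting error there, with an hMeDIP over MeDIP ratio of 0.718 (0.396 to 1.32).

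The antibody reads of these steps came almost all from the plus strand. In hMeDIP 27 were on the plus and 1 on the minus strand, and in MeDIP 22 were on the plus and 0 on the minus strand. The 600 mM eluate had 2 on each. The captured stretch beside them was one-sided in the antibodies too, with 7 plus and 1 minus reads in hMeDIP and 15 plus and 2 minus reads in MeDIP, against 5 plus and 9 minus reads at 800 mM and 48 plus and 51 minus reads at 600 mM. The antibody values given for that stretch rest on these one-sided reads. Over the genome, tiles of 1.5 kb with at least 20 reads had at most 1 read on the lesser strand in 3.77% of cases in hMeDIP, 4.93% in MeDIP, 0.00972% at 800 mM, 0.129% at 600 mM and 0.00202% in input. Such one-sided tiles thus occurred in the antibody libraries at a far higher share than in the other libraries, and the Rasgrf1 steps are examples of them. Why one-sided tiles were more frequent in the antibody libraries was not tested. The input held 1 read in these 3 steps. Whether the reads of this DNA can be placed by an aligner, and the part of that in the result, was not tested.

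**Figure D3:**
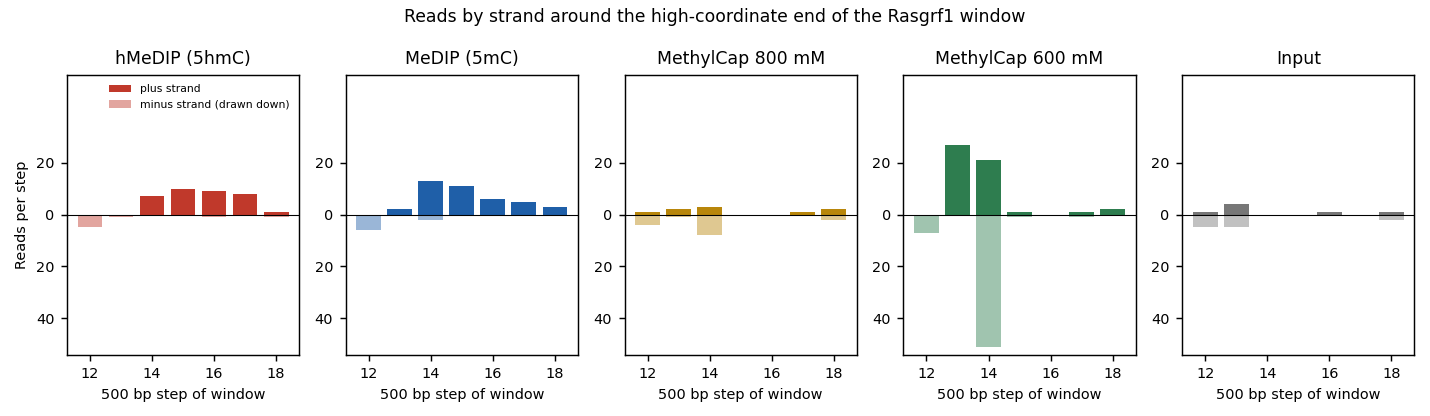
Reads per 500 bp step (vertical axis) by strand, plus strand upward and minus strand downward, in steps 12 to 18 of Rasgrf1 for hMeDIP, MeDIP, the 800 mM eluate, the 600 mM eluate and input. In steps 15 to 17 hMeDIP had 27 plus and 1 minus reads and MeDIP 22 plus and 0 minus reads, while in step 14 the 600 mM eluate had 21 plus and 51 minus reads.

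At all 3 control regions, the stretch captured at 600 mM had a lower RPM with the 5hmC antibody than with the 5mC antibody. The hMeDIP over MeDIP ratio was 0.0728 (0.0301 to 0.152) in the H19 control region, 0.184 (0.119 to 0.279) in the Meg3 intergenic stretch and 0.265 (0.0991 to 0.649) in the Rasgrf1 stretch. Over both flanks together it was 1.09 (0.907 to 1.32) at H19, 0.865 (0.767 to 0.976) at Meg3 and 1.14 (0.953 to 1.37) at Rasgrf1. Relative to its own flanks, the ratio of each stretch was 0.0668 (0.0270 to 0.144) at H19, 0.213 (0.135 to 0.329) at Meg3 and 0.233 (0.0855 to 0.583) at Rasgrf1. All 3 intervals lie below 1.

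The same ratio was also set against other captured DNA, since the capture itself selects DNA with methylated CpG. Joining enriched steps of the 600 mM eluate across at most 1 other step gave 63178 stretches in the genome, over which the hMeDIP over MeDIP ratio was 0.644 (0.642 to 0.646). Among the 13166 stretches of at least 2 steps with at least 20 antibody reads, the median was 0.607. A ratio as low as in the H19 control region, or lower, occurred in 0.820% of them, as low as in the Meg3 stretch in 5.87% and as low as in the Rasgrf1 stretch in 13.2%. The value of Meg3 depends on the steps taken. Over the 2 steps of the block enriched at 800 mM it was 0.368 (0.178 to 0.736), and over steps 7 to 15 it was 0.481 (0.298 to 0.775), and both of these intervals include the genome ratio. Over the stretches themselves, the intervals of H19 and Meg3 lie below the genome ratio, and that of Rasgrf1, with 25 antibody reads, reaches it. The other captured stretch of H19, steps 4 to 8 over the gene and promoter, had a ratio of 0.319 (0.222 to 0.453), with 18.8% of stretches as low or lower.

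Among the control regions H19 had the lowest hMeDIP over MeDIP ratio. Its ratio was 0.397 (0.148 to 0.957) times that of the Meg3 stretch and 0.279 (0.0777 to 0.988) times that of the Rasgrf1 stretch. Meg3 and Rasgrf1 did not differ beyond counting error, at 0.695 (0.253 to 2.05) times. Over the 600 mM eluate, hMeDIP at H19 stood at 0.610 (0.235 to 1.41) times Meg3 and 0.854 (0.268 to 2.72) times Rasgrf1. Over input it stood at 0.449 (0.146 to 1.28) times Meg3 and 0.508 (0.118 to 2.13) times Rasgrf1. These intervals all include 1, so the ranking holds for the ratio to MeDIP only. Within the H19 window, the hMeDIP over MeDIP ratio of the control region was 0.152 (0.0588 to 0.347) times that of the gene. It was 0.168 (0.0629 to 0.399) times that of the promoter and upstream part. At 3-fold or more, MeDIP exceeded hMeDIP in 3 of the 72 steps, against 0.22% of the genome, and these were steps 11 and 12 of H19 and step 6 of Meg3. hMeDIP exceeded MeDIP in 0 of 72, against 0.179%.

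**Figure D4:**
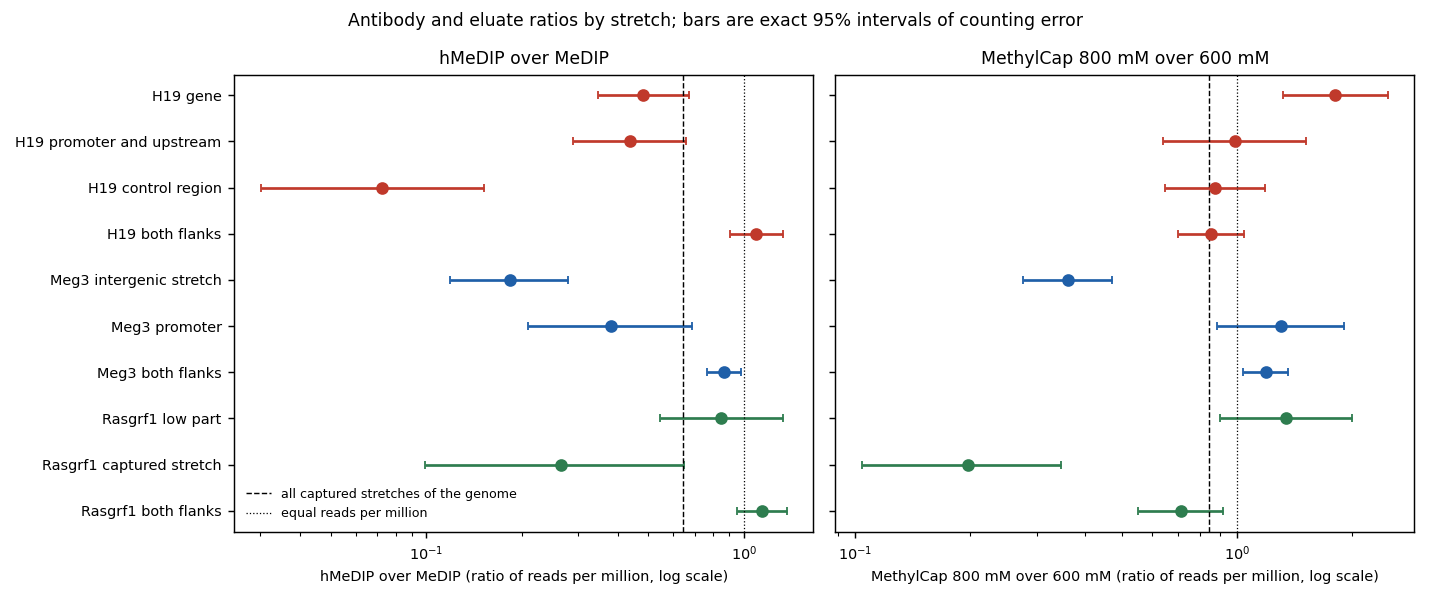
Ratio of RPM between hMeDIP and MeDIP (left) and between the 800 mM and 600 mM eluates (right), on horizontal log axes, for parts of the H19, Meg3 and Rasgrf1 windows and their flanks. Points are ratios of 1 library each and bars exact 95% intervals of counting error. The dashed lines mark the ratio over all captured stretches of the genome, 0.644 on the left and 0.845 on the right, and the dotted lines equal RPM.

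The salt eluates set H19 apart from the other control regions. In the H19 control region the 800 mM over 600 mM ratio was 0.877 (0.645 to 1.19), near the 0.845 of all captured stretches, and 48.3% of the 13166 stretches were as low or lower. In the Meg3 intergenic stretch it was 0.361 (0.274 to 0.470), with 3.73% as low or lower, and in the Rasgrf1 stretch 0.197 (0.104 to 0.347), with 0.160% as low or lower. Because the stretches were chosen by their 600 mM reads, this ratio is biased downward in all of them, in the genome list too. The H19 ratio was 2.42 (1.61 to 3.66) times that of Meg3 and 4.43 (2.30 to 9.04) times that of Rasgrf1, and Meg3 and Rasgrf1 differed by 1.83 (0.968 to 3.68) times, an interval that includes 1.

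Over the H19 gene as a whole the 800 mM eluate was above the 600 mM eluate, to a large part through 1 step. The gene had a ratio of 1.81 (1.32 to 2.48), from 96 reads at 800 mM and 74 at 600 mM. Step 2 (149761501 to 149762000) gave 46 and 11 of these, with a ratio of 5.83 (2.97 to 12.5). That step held 14 reads in hMeDIP, 8 in MeDIP and 1 in input. The captured stretch of steps 4 to 8, which was chosen by 600 mM reads and leaves step 2 out, had a ratio of 0.977 (0.693 to 1.37). The Meg3 promoter part had a ratio of 1.30 (0.883 to 1.91), which includes 1, and the intergenic stretch had 0.279 (0.173 to 0.448) times that ratio. At 3-fold or more, the 800 mM eluate exceeded the 600 mM eluate in 1 of 72 steps, against 0.154% of the genome, and this was step 2 of H19. The 600 mM eluate exceeded the 800 mM eluate in 4 of 72 steps, against 0.0492%, and these were steps 6 and 8 of Meg3 and steps 13 and 14 of Rasgrf1.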

How the data were processed

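Each line of the deposited files is an aligned read of 35 bp, and the deposited count in column 5 was always 1. The submitters' processing notes name BWA 0.5.8 and mm9. Column 4 of the deposited files holds 0 or 1, and neither labels nor headers say what it means. No position and strand carried more than 2 reads, which caps dense signals. Reads were assigned by midpoint to 500 bp steps of chromosomes 1 to 19 and X with Python 3.11.15, numpy 2.4.6, pandas 2.3.3 and scipy 1.17.1, and scaled to RPM. Fold differences between the deposited libraries are ratios of these values with exact 95% intervals, and ratios of ratios have exact conditional odds-ratio intervals. No p-value was computed, as each group has 1 library, and the depth of 7539403 to 18722723 reads leaves few reads per step.

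Named steps were those with the highest ratio to input per window and library (at least 3 input and 10 library reads), and the highest and lowest ratio of each library pair (at least 20 reads). The windows, their approximate parts and these rules were chosen with earlier results of these data known, and the captured stretches after the values were seen. The threshold and intervals were tested on simulated data that held counting error alone, with enriched steps placed only where the local input was not sparse. That simulation does not cover spread beyond counting error, or enriched steps in DNA with sparse input. Alternatives moved reads by 100 bp along their strand, left out column 4 reads or repeated positions, rescaled to the median step, used the flanks as background, and changed the pseudocount, threshold and step size.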

Additional observations from a re-analysis of the deposited data

How the results depend on the processing

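Of 159 values computed under alternatives for 28 results, 127 stayed within counting error or 1.5 times the main count, 30 moved and 2 reversed. With the flanks as background, the ratio to input of the Meg3 window reversed to 0.708 in MeDIP and 0.796 at 800 mM, and moved to 0.370 in hMeDIP and 1.497 at 600 mM. The H19 window then had 1.15 in hMeDIP, 3.64 in MeDIP, 3.84 at 800 mM and 2.998 at 600 mM, and the eluate ratio of the Rasgrf1 window was 0.833. Over steps with at least 3 input reads, the median ratio to input with the pseudocount was 0.806 in hMeDIP, 0.776 in MeDIP and 0.757 in each eluate. The eluate value is that of a step with 0 eluate and 3 input reads, so it is set by the pseudocount. Setting these medians to 1 moved the Meg3 window to 2.57 in MeDIP, 3.64 at 800 mM and 5.76 at 600 mM and the enriched hMeDIP steps to 2. The window ratios hold no pseudocount, so this rescaling is rough, and the ratio between the eluates could not change. In the order hMeDIP, MeDIP, 800 mM and 600 mM, enriched steps numbered 7, 19, 30 and 29 with a pseudocount of 0.1 RPM, 0, 3, 3 and 5 with 1 RPM, 4, 17, 25 and 28 at 2-fold, and 0, 3, 2 and 5 at 5-fold. The enriched hMeDIP steps numbered 0 with reads moved by 100 bp and 2 with steps of 1000 bp. The share of genome steps was computed for the main rule only, so counts under the alternatives cannot be set against the genome. An alternative chosen after seeing the data, the Meg3 steps enriched at 800 mM, gave an hMeDIP over MeDIP ratio of 0.368. Leaving out the column 4 reads, or repeated positions, moved none of the 28 results, but the antibody libraries hold no such reads, so their ratio to each other could not change. No paired analysis was possible because each group has 1 library. Read depth limits the Rasgrf1 stretch most, with 8 hMeDIP and 17 MeDIP reads, and differences between E14 clones and TNG-A cells cannot be told apart from enrichment in any ratio to input. The ratios between antibodies or between eluates do not hold input reads. The captured stretches, in the windows and in the genome, were however set by the 600 mM ratio to input. The input thus had a part in which steps enter the stretch ratios.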

Other observations

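Beyond the windows, 8 flank steps carried 30 or more 5hmC antibody reads. In the lower flank of H19, the step at 149746501 held 35 reads in hMeDIP, 27 in MeDIP, 2 at 800 mM, 24 at 600 mM and 0 in input. In the lower flank of Rasgrf1, the step at 89765001 held 37 reads in hMeDIP, 4 in MeDIP, 1 at 800 mM, 0 at 600 mM and 8 in input. In its upper flank, the step at 89795001 held 30 reads in hMeDIP, 6 in MeDIP and 9 in input. The other 5 lay in the upper flank of Meg3. The neighbouring steps at 110784001 and 110784501 held 35 and 45 reads in hMeDIP and 20 and 22 in MeDIP. The 3 consecutive steps from 110798001 held 37, 31 and 40 reads in hMeDIP and 14, 5 and 34 in MeDIP. These steps were picked out after their values were seen and were not tested. The share of genome steps with as many hMeDIP reads was not computed, so their count cannot be called high or low.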
